A study of Rattus norvegicus with 16 samples.

Results

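The growth hormone and insulin-like growth factor (IGF) axis of the liver was followed through 8 genes: Igf1, Ghr, Socs2, Igfals, Igfbp1, Igfbp2, Igfbp3 and Igfbp4. They were listed by name, and each was represented by the brightest array row that carries its symbol and no other. All 8 had exactly 1 such row, out of 13215 genes with a row of their own. Liver RNA of 16 male Sprague Dawley rats, each on an array of its own, had been hybridised to the Rat Exon 1.0 ST platform. The 4 groups of 4 animals were fed rats (fed), rats fasted to phase 2 of a fast (P2), rats fasted to phase 3 (P3), and rats that had reached phase 3 and were then given food again for 2 days (P3r2). Body fat is the main fuel in phase 2 of fasting, and in phase 3 the breakdown of body protein rises. Whole liver pieces were used, so the signal is that of all liver cells together. In such samples fewer cells of a type and less RNA per cell cannot be told apart. The labels state no age, fasting time or hormone level.

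Growth hormone from the pituitary acts on hepatocytes through its receptor, Ghr, and the kinase Jak2, which activates the transcription factors Stat5a and Stat5b. Their targets include Igf1, the main circulating growth factor of this axis, Igfals, the acid-labile subunit, and Socs2, which damps the signal of the receptor. In blood most IGF-I travels in a complex of a binding protein (chiefly IGFBP-3) and the acid-labile subunit, which prolongs its life. IGFBP-1 is a short-lived binding protein whose gene insulin represses and glucocorticoids and glucagon raise. Fasting is known to lower circulating IGF-I while growth hormone itself need not fall, a state called growth hormone resistance.

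The promoters of 3 members are shown because the 2 binding protein genes with the largest rise in fasting, Igfbp1 and Igfbp2, and Igf1, which fell in phase 3, form the main contrast of the results. Of the 8 members, 7 had an entry in the RefSeq promoter table (assembly GRCr8), which holds 1 start site per gene. Printed are the 250 bases before that start site, 5′ to 3′ on the strand of the gene. For Igf1, Ghr and Igfals the table's start site lies inside the annotated span of the gene, so other start sites lie outside the windows searched. The windows are chr14:86261027-86261276 for Igfbp1, chr7:24172282-24172531 for Igf1 and chr9:81864561-81864810 for Igfbp2, all on the plus strand. Capitals mark matches to the motifs named after the sequences.
Igfbp1: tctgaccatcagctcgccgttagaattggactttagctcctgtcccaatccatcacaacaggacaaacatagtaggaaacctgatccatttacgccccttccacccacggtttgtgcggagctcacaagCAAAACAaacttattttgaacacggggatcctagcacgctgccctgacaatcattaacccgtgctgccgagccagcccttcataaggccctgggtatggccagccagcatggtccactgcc
Igf1: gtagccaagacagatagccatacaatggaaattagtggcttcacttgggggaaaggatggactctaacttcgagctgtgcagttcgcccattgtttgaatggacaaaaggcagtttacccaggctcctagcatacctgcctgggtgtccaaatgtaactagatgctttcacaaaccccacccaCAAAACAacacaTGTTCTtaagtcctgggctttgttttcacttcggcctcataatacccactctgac
Igfbp2: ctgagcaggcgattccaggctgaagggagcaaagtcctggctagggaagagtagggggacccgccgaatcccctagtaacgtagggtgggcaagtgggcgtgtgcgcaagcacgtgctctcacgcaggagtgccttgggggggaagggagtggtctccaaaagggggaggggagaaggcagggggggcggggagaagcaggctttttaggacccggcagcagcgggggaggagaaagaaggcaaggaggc
Motifs were searched on both strands, and no match overlapped another. CAAAACA, the core of the insulin response element, was found at -121 to -115 in Igfbp1 and at -67 to -61 in Igf1, counted from the table's start site, and in 5.46% of the 33465 promoters searched. TGTTCT, a short element of glucocorticoid receptor sites, was found at -55 to -50 in Igf1 and at -93 to -88 in Ghr, and in 17.5% of all promoters. TATAAA, the TATA box, was found in Igfbp4 at -40 to -35 and in 12.9% of all promoters. None of the 7 windows held GTAAACA (1 form of FOXO site, 3.22% of promoters) or TTCNNNGAA (a STAT5 site, 7.67%). The absence of GTAAACA does not cover other forms of FOXO site. The matches describe letters in these windows and no binding, and the windows of Igfbp2, Igfals and Igfbp3 held none of these motifs. The 2 promoters with the insulin response core belong to genes that moved in opposite directions in phase 3. Igfbp1 and Igfbp3 are neighbours on chromosome 14, and their responses differed as given below.

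Some features of the arrays bear on all values. Over the 13947 rows tested, 2 arrays of the same group had a correlation between 0.964 and 0.994, and 2 of different groups one between 0.899 and 0.986. The signals of an array spread least, within each fasted or fed group, on fed 2, P2 4 and P3 3 (standard deviations of 2.16, 2.18 and 2.22 log2 units), and these arrays had the lowest weights when arrays were weighted by how well they followed their group (0.32, 0.38 and 0.32). Member calls that change without these 3 arrays of narrow spread are given with their value. The hepatocyte marker Alb, albumin, had a log2 signal between 12.98 and 13.53 over the 16 arrays. By limma it was lower in P3 than in P2 (-0.39 ± 0.08, adjusted p = 0.0015) and higher in P3r2 than in P3 (0.26 ± 0.08, adjusted p = 0.028). Other hepatocyte markers moved in P3 against fed, where Ttr (-0.80), Ambp (-0.57) and Ahsg (-0.45) were called lower and Cps1 (0.42) higher. Changes below are differences of log2 signals ± the standard error of 1 limma fit over all 16 arrays. A change is called when its Benjamini-Hochberg adjusted p over 13947 rows is below 0.05, and only called changes are described as rises or falls. Comparisons with the fed group share the same 4 fed animals.

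**Figure D1:**
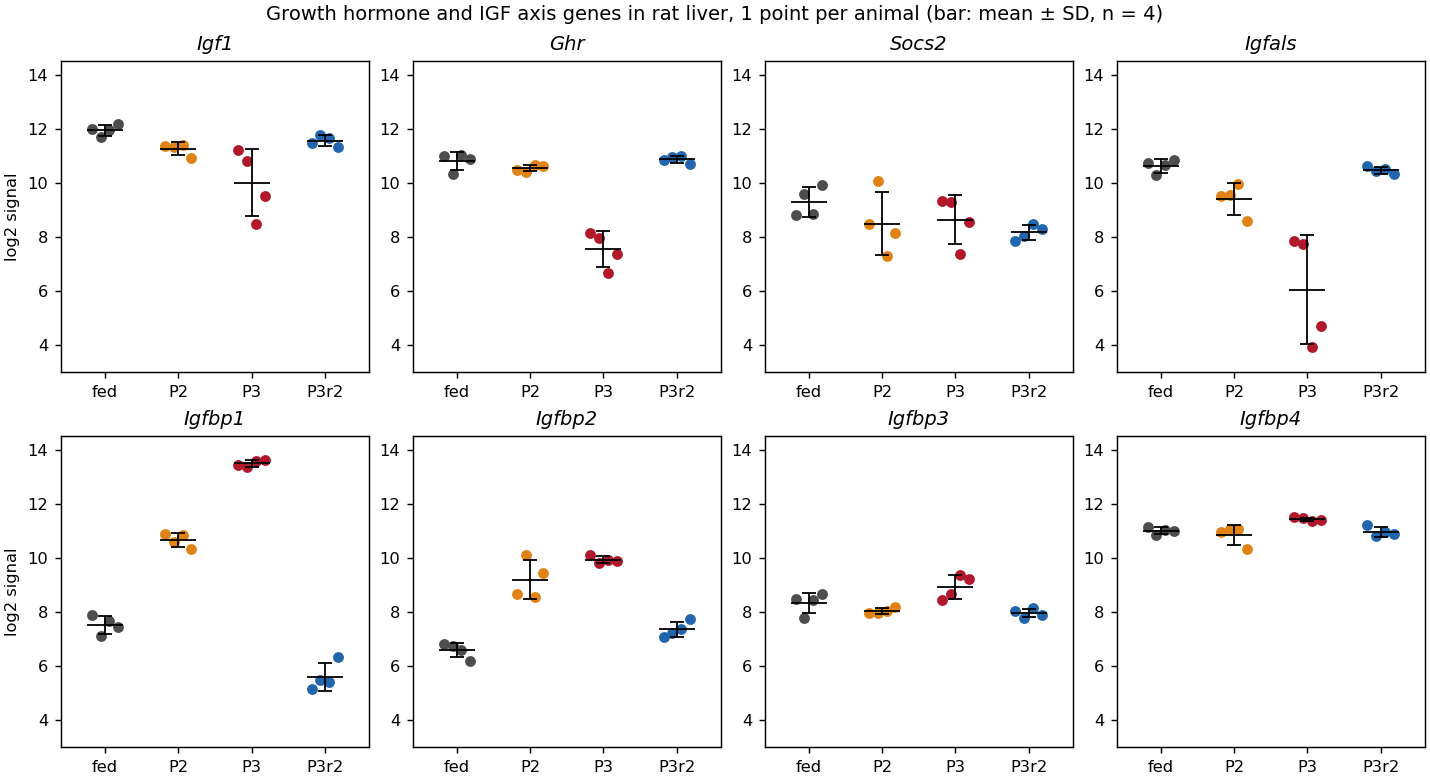
Log2 signal of the 8 genes (vertical axis, the same range in each panel) in fed, P2, P3 and P3r2 livers, 1 point per animal in the order of the animal numbers, with black bars for the mean ± SD (n = 4). Igfbp1 climbs to between 13.37 and 13.63 in P3 and lies between 5.16 and 6.31 in P3r2, while Ghr, Igfals and Igf1 are lowest in P3.

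Counted over the axis, 7 of the 8 genes were called in P3 against fed, 4 higher and 3 lower, where 25.8% of all rows were called, 15% higher and 10.7% lower. In P2 against fed 2 of 8 were called, both higher, beside 17.2% of all rows, 8.05% higher and 9.15% lower. In P3 against P2 7 of 8 were called, 4 higher and 3 lower, beside 29.2% of all rows, 18.1% higher and 11.1% lower. In P3r2 against P3 7 of 8 were called, 3 higher and 4 lower, beside 24.6%, 14% higher and 10.6% lower. In P3r2 against fed 1 of 8 was called, and it was lower, beside 4.37% of all rows, 3.61% higher and 0.76% lower. The rows of that comparison were 503 higher and 106 lower, and 240 higher and 213 lower after quantile normalization. In P3r2 against P2 2 of 8 were called, both lower, beside 21.2% of all rows, 15.6% higher and 5.68% lower. Those rows were 2171 higher and 792 lower, with 1475 and 1295 after quantile normalization and 1982 and 1367 with each array centred on its median. All 8 genes are among the 6973 rows above the median of row means, where calls were more frequent. A fit of these brighter rows called 3292 in P3 against fed (1949 higher, 1343 lower). It called 2340 in P2 against fed (966 higher, 1374 lower) and 3613 in P3 against P2 (2338 higher, 1275 lower). In P3r2 against P3 3090 were called (1780 higher, 1310 lower), and in P3r2 against fed 667 (573 higher, 94 lower). In P3r2 against P2 2670 were called (2181 higher, 489 lower). The shares over all rows are thus a low background for these 8 genes, and for the brighter genes of the lists below.

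Groups that did not overlap were found for 6 of the 8 genes in P3 against fed (24% of all rows), 4 in P2 against fed (22.4%) and 5 in P3 against P2 (26.6%). They were found for 7 in P3r2 against P3 (27.8%), 3 in P3r2 against fed (15.1%) and 4 in P3r2 against P2 (28.8%). The median size of the change over the 8 genes in P3 against fed was 2.61 log2 units, beside 0.21 over all rows. With sign the median was -0.11, since rises and falls lay on both sides, beside 0.04 over all rows. Of the 7 calls in P3 against fed, those of Igf1, Ghr, Igfals, Igfbp1 and Igfbp2 stood in all 16 fits without 1 array. Where the array left out is of neither group compared, the difference cannot move, and only its standard error and adjusted p can.

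**Figure D2:**
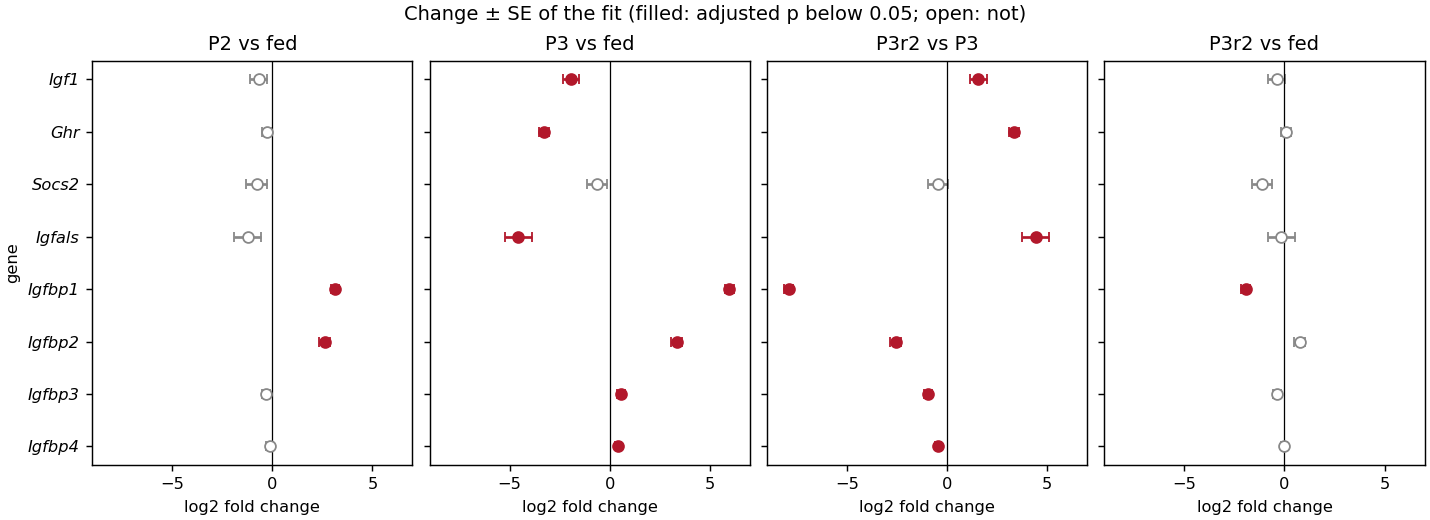
Log2 fold change (horizontal axis, with bars for ± 1 standard error of the fit) of the 8 genes in P2 against fed, P3 against fed, P3r2 against P3 and P3r2 against fed. Filled points have an adjusted p below 0.05: 2, 7, 7 and 1 of the 8 genes in the panels from left to right.

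Igf1, the growth factor itself (transcript cluster 7313468), fell in phase 3 and rose again in re-fed livers. Its log2 signal was 12.00, 11.67, 11.93 and 12.17 in the fed animals, 11.37, 11.33, 11.41 and 10.90 in P2, 11.23, 10.80, 8.48 and 9.50 in P3, and 11.48, 11.76, 11.67 and 11.32 in P3r2. Both fasted groups lay wholly below the fed animals, and within P3 the animals spread over 2.75 log2 units, with 2 animals near the P2 values and 2 lower by over 1 log2 unit. Igf1 fell by 1.94 ± 0.42 in P3 against fed (adjusted p = 0.0024, a 3.84-fold difference). The value was -1.43 without P3 3 and -2.35 without P3 1. In P2 against fed the difference was -0.69 ± 0.42 (adjusted p = 0.26), which the fit over all groups did not call. That fit takes 1 spread from all 4 groups, the wide P3 included; in a fit of P2 and fed alone the adjusted p was 0.024. Against P2, Igf1 fell by 1.25 ± 0.42 in P3 (adjusted p = 0.034), a call that was lost in 5 of the 16 fits without 1 array and without the 3 arrays of narrow spread (-0.86, adjusted p = 0.056). It was also lost in the fit of P3 and P2 alone (adjusted p = 0.13) and after quantile normalization (adjusted p = 0.064). The value without P3 3 was -0.74 (adjusted p = 0.073). In P3r2, Igf1 rose by 1.56 ± 0.42 against P3 (adjusted p = 0.011). That difference was 1.05 without P3 3, and it was not called in the fit of these 2 groups alone (adjusted p = 0.064). Its difference from fed was -0.38 ± 0.42 (adjusted p = 0.77).

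Ghr, the receptor through which growth hormone acts on the liver (transcript cluster 7204548), fell in phase 3. Measured log2 signals were 10.98, 10.34, 11.03 and 10.86 in fed animals, 10.46, 10.41, 10.67 and 10.61 in P2, 8.13, 7.97, 6.66 and 7.37 in P3, and 10.85, 10.97, 10.98 and 10.70 in P3r2. The highest P3 animal lay more than 2 log2 units below the lowest animal of any other group. Ghr fell by 3.27 ± 0.25 in P3 against fed (adjusted p = 1.8e-07, 9.65-fold) and by 3.00 ± 0.25 against P2 (adjusted p = 8.7e-07). It rose by 3.34 ± 0.25 in P3r2 against P3 (adjusted p = 1.4e-07). P2 differed from fed by -0.27 ± 0.25 (adjusted p = 0.48; -0.45 without the 3 arrays of narrow spread) and P3r2 from fed by 0.07 ± 0.25 (adjusted p = 0.95), neither of which was called.

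Igfals (transcript cluster 7065638) encodes the acid-labile subunit that the liver secretes to stabilise IGF-I in blood. It had log2 signals of 10.72, 10.27, 10.65 and 10.85 in fed animals, 9.52, 9.56, 9.94 and 8.57 in P2, 7.83, 7.72, 3.93 and 4.69 in P3, and 10.62, 10.43, 10.51 and 10.31 in P3r2. Every P2 animal lay below every fed animal, and every P3 animal below every P2 animal. The P3 animals fell into a higher pair (P3 1 and P3 2) and a lower pair, with a range of 3.90 log2 units, the widest of any member in any group. Igfals fell by 4.58 ± 0.67 in P3 against fed (adjusted p = 9.6e-05, 24.0-fold), a difference that was -3.88 without P3 3 and -5.18 without P3 1. The difference of P2 from fed, -1.22 ± 0.67, was not called in the fit over all groups (adjusted p = 0.22) but had an adjusted p of 0.023 in the fit of these 2 groups alone. P3r2 livers rose by 4.43 ± 0.67 against P3 (adjusted p = 0.00014) and differed from fed by -0.16 ± 0.67 (adjusted p = 0.96).

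Socs2, the feedback inhibitor that growth hormone induces (transcript cluster 7324052), was called in 0 of the 6 comparisons by limma and had an unadjusted p under 0.05 in 1, P3r2 against fed (0.042). Its signals were 8.80, 9.57, 8.83 and 9.93 in fed animals, 8.47, 10.05, 7.30 and 8.14 in P2, 9.32, 9.27, 7.37 and 8.56 in P3, and 7.84, 8.03, 8.47 and 8.30 in P3r2. The P2 animals alone covered 2.75 log2 units, from below all fed animals to above them. Socs2 differed by -0.65 ± 0.51 in P3 against fed (adjusted p = 0.43), or by -0.14 without the 3 arrays of narrow spread, and by -1.12 ± 0.51 in P3r2 against fed (adjusted p = 0.26). In this last comparison the groups did not overlap, and a fit of the P3r2 and fed groups alone gave an adjusted p of 0.049.

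**Figure D3:**
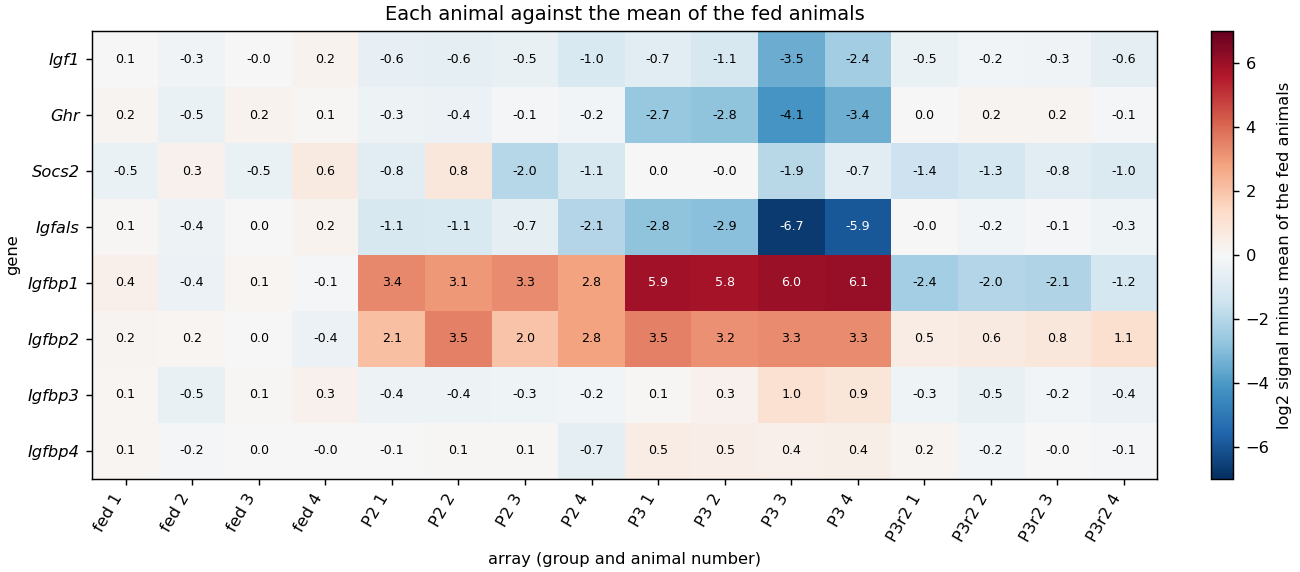
Log2 signal of each animal (columns, grouped as fed, P2, P3 and P3r2) minus the mean of the fed animals for the 8 genes (rows), with the number in each cell and red for higher and blue for lower. In P3 animals 3 and 4, Igf1, Ghr and Igfals lie lower and Igfbp3 higher than in P3 animals 1 and 2, while Igfbp1 is near 6 in all 4.

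Across the 4 P3 animals the members did not spread alike. P3 1 and P3 2 lay above P3 4, and P3 4 above P3 3, in 5 of the 8 members, Igf1, Ghr, Igfals, Socs2 and Igfbp4, the last within 0.14 log2 units. In Igfbp3, P3 3 and P3 4 lay above P3 1 and P3 2. Igfbp2 covered 0.30 log2 units in the same 4 animals. Igfbp1 covered 0.26, but at the top of the arrays' signal range, where differences can be flattened, so no small spread is read from it. P3 3 is also 1 of the arrays of narrow spread, and P3 4 is not, with a standard deviation of 2.34 log2 units and a weight of 0.87. The part of array quality in this pattern was not tested.

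Igfbp1, the insulin-repressed binding protein (transcript cluster 7120834), had the largest change of the 8 genes in 5 of the 6 comparisons, all but P3 against P2, where Igfals and Ghr changed more. Its log2 signal was 7.89, 7.12, 7.66 and 7.43 in fed animals, 10.88, 10.58, 10.83 and 10.33 in P2, 13.42, 13.37, 13.57 and 13.63 in P3, and 5.16, 5.49, 5.39 and 6.31 in P3r2. The 4 groups did not overlap at any point, and the re-fed animals lay below the animals that were never fasted. Igfbp1 rose by 3.13 ± 0.22 in P2 against fed (adjusted p = 1.1e-06, 8.78-fold), and by 5.97 ± 0.22 in P3 against fed (adjusted p = 7.5e-11, 62.9-fold). The further rise in P3 against P2 was 2.84 ± 0.22 (adjusted p = 4.0e-07). In P3 it was the brightest row of the array in 1 animal and the row next to the brightest in the other 3, where the top of these arrays lay at 13.42 to 13.63. Array signals can flatten near the top, so the rise in P3 may be understated.

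After 2 days of re-feeding, Igfbp1 fell by 7.91 ± 0.22 log2 units in P3r2 against P3 (adjusted p = 1.4e-12, 240.2-fold). In P3r2 1, 2 and 3 its signal (5.16, 5.49 and 5.39) was close to the array medians (5.14, 5.13 and 5.17). The size of this fall thus rests in part on faint signals. Igfbp1 lay below the fed level in P3r2, and the difference of P3r2 from fed was -1.93 ± 0.22 (adjusted p = 0.00023, 3.82-fold). This was the 1 member called in that comparison. Against P2, Igfbp1 (-5.07 ± 0.22, adjusted p = 2.1e-09) and Igfbp2 (-1.84 ± 0.27, adjusted p = 0.00039) were lower in P3r2.

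Igfbp2 (transcript cluster 7355885) encodes a binding protein that is low in the liver of well-fed adult rats and rises in fasting. It had log2 signals of 6.79, 6.75, 6.60 and 6.19 in fed animals, 8.67, 10.09, 8.56 and 9.43 in P2, 10.10, 9.80, 9.90 and 9.90 in P3, and 7.08, 7.20, 7.38 and 7.73 in P3r2. Both fasted groups lay above all eating animals, and every P3r2 animal lay above every fed animal. Igfbp2 rose by 2.60 ± 0.27 in P2 against fed (adjusted p = 4.8e-05) and by 3.34 ± 0.27 in P3 against fed (adjusted p = 3.0e-07). The groups P3 and P2 overlapped, and the difference of 0.74 ± 0.27 (adjusted p = 0.049) was no longer called in 13 of the 16 fits without 1 array, nor without the 3 arrays of narrow spread (0.83, adjusted p = 0.076). In P3r2, Igfbp2 fell by 2.58 ± 0.27 against P3 (adjusted p = 3.7e-06). Unlike Igfbp1 it did not pass below fed: the difference of P3r2 from fed was 0.77 ± 0.27 (adjusted p = 0.13, or 0.045 in the fit of these 2 groups alone).

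Igfbp3, the main carrier of IGF-I in blood (transcript cluster 7128068), is made in liver mostly by cells other than hepatocytes. The log2 signal was 8.47, 7.79, 8.43 and 8.66 in fed animals, 7.96, 7.96, 8.02 and 8.17 in P2, 8.43, 8.65, 9.38 and 9.20 in P3, and 8.01, 7.79, 8.12 and 7.90 in P3r2. The P3 animals lay above all P2 and P3r2 animals and overlapped with the fed ones. Igfbp3 rose by 0.89 ± 0.20 in P3 against P2 (adjusted p = 0.0036), and it fell by 0.96 ± 0.20 in P3r2 against P3 (adjusted p = 0.0023). The rise of 0.58 ± 0.20 in P3 against fed (adjusted p = 0.047) was lost in 13 of the 16 fits without 1 array and was 0.24 (adjusted p = 0.35) without the 3 arrays of narrow spread. The difference of P2 from fed was -0.31 ± 0.20 (adjusted p = 0.31), and -0.54 (adjusted p = 0.041) without those arrays.

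Markers of other liver cells are given beside Igfbp3, and those named were chosen after their values were seen. Their counts in P3 against fed stand beside 15% of all rows higher and 10.7% lower. The log2 of the summed signal of the sinusoidal endothelial markers (4 of 10 had a row) lay between 11.42 and 11.85 in P3, against 10.39 to 11.32 in fed, and 2 of the 4 were called higher. For the Kupffer cell and macrophage markers (10 of 11) the ranges were 11.13 to 11.81 in P3 and 10.55 to 11.63 in fed, with 2 higher, C1qb and C1qc. For the hepatic stellate markers (6 of 10) they were 9.98 to 10.98 in P3 and 9.48 to 10.24 in fed, with 1 higher and 2 lower. The 1 higher was Dcn, decorin (3.80 ± 0.39, adjusted p = 3.6e-06), while Lrat and Pdgfrb fell. Without the 3 arrays of narrow spread, 1 endothelial marker was called higher. The higher calls of C1qb and C1qc were lost in that fit, and 1 macrophage marker was called lower. By limma 0 of the 5 cholangiocyte markers with a row (8 listed) were called and 1 had an unadjusted p under 0.05, with sums of 7.04 to 7.46 in P3 and 6.40 to 7.36 in fed. The hepatocyte markers (8 of 10) had a sum of 15.38 to 15.63 in P3 and 15.62 to 15.88 in fed, with 1 higher and 3 lower. The lowest signal of any marker on any array was 2.34 log2 units, and the part of cell numbers in these results was not tested.

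Igfbp4, a binding protein that holds IGF back from its receptor (transcript cluster 7071991), moved least in P3 against fed. Log2 signals were 11.14, 10.83, 11.02 and 10.99 in fed animals, 10.94, 11.08, 11.07 and 10.31 in P2, 11.50, 11.46, 11.36 and 11.40 in P3, and 11.21, 10.79, 10.96 and 10.87 in P3r2. The P3 animals lay above every other animal, with 0.14 log2 units between them. Igfbp4 rose by 0.43 ± 0.15 in P3 against fed (adjusted p = 0.047) and by 0.58 ± 0.15 against P2 (adjusted p = 0.0093), and fell by 0.47 ± 0.15 in P3r2 against P3 (adjusted p = 0.033). The call against fed was lost in 12 of the 16 fits without 1 array, where the difference stayed between 0.38 and 0.48, and the call of P3r2 against P3 in 6.

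By mean level, Igf1 and Igfals ran in the order fed, P3r2, P2, P3, and only the last step, P2 above P3, was called. Ghr ran P3r2, fed, P2, P3, again with only the last step called. Igfbp1 ran P3, P2, fed, P3r2, with every step called, and Igfbp2 ran P3, P2, P3r2, fed, with the first 2 steps called. Igfbp3 ran P3, fed, P2, P3r2 and Igfbp4 P3, fed, P3r2, P2, with the first step called in each. Socs2 ran fed, P3, P2, P3r2 with no step called.

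The genes nearest to each member over the 16 arrays were found as those with the smallest root mean square difference after each gene was centred on its own mean. Nearest to Igf1 were C3, complement component 3 (0.20 log2 units), Serpinf2, the plasmin inhibitor (0.24), and Cyp4f1 (0.26), where Igf1 itself varied by 0.92 about its mean. Nearest to Ghr were Hadh, a dehydrogenase of fatty acid oxidation (0.25), Gamt, which makes creatine (0.26), and Khk, ketohexokinase (0.26), where Ghr varied by 1.43. Nearest to Igfals were Xpnpep2 (0.41), Dpys (0.47) and Slco1b2, an uptake transporter of hepatocytes (0.57), where Igfals varied by 2.06. For Igfbp2 they were Trib3, an inhibitor of the kinase Akt (0.50), Pla2g12a (0.61) and Upp2, a uridine phosphorylase (0.62), where Igfbp2 varied by 1.395. Igfbp1, which varied most of the members, lay farthest in log2 units from its nearest gene, a distance not scaled to the variation of each gene. That gene, Gadd45b, a stress response gene, differed by 1.501 where Igfbp1 varied by 3.03. Cdkn1a, a cell cycle inhibitor (1.64), and Kcnma1 (1.70) followed. Igfbp3 was followed by Mpi (0.21), Hgd (0.22) and Csf2rb (0.23), and Igfbp4 by Eef2 (0.12), 2510039O18Rikl (0.13) and Glud1 (0.15), where the members varied by 0.46 and 0.29. Socs2 varied by 0.80, and its nearest genes were Or7d12 (0.50), Or6n2 (0.51) and Twist1 (0.59). The group means of Or7d12 and Or6n2 lay between 1.78 and 3.18 log2 units, below the median of every array, so these matches are to faint rows.

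The genes that carry the signal of the growth hormone receptor changed in both directions in phase 3. Of 18 measured genes of that list (22 listed), 5 were higher and 4 lower in P3 against fed, with a median of 0.06 beside 0.04 over all rows. All rows together had 15% higher and 10.7% lower. Stat5a, a transcription factor the receptor activates, had a log2 signal of 5.85, 5.70, 5.56 and 5.93 in P3 and 7.56, 6.998, 7.50 and 7.46 in fed animals, with no overlap. It fell by 1.62 ± 0.15 in P3 against fed (adjusted p = 1.5e-06) and the difference in P2 was -1.22 ± 0.15 (adjusted p = 0.00022). Its sister Stat5b fell by 0.84 ± 0.26 in P3 (adjusted p = 0.026) and by 1.07 ± 0.26 in P2 (adjusted p = 0.013). Socs3, a feedback inhibitor that cytokines and growth hormone induce, stood at 6.42, 6.63, 7.81 and 6.69 in P3, above the fed animals at 5.32, 4.73, 5.91 and 4.81. It rose by 1.69 ± 0.58 (adjusted p = 0.042). Ptpn2, a phosphatase of Jak and Stat proteins (2.81 ± 0.30), and Stat3, the factor of interleukin-6 signalling (1.06 ± 0.23), rose as well. Jak2 (-0.60 ± 0.27, adjusted p = 0.13) and Cish (0.50 ± 0.46, adjusted p = 0.53), another target of Stat5, were not called.

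In P2 against fed, 5 genes of this list fell and 0 rose in limma's adjusted test, with 6 lower and 2 higher at an unadjusted p under 0.05. Without the 3 arrays of narrow spread 7 fell. The background with all arrays was 8.05% of rows higher and 9.15% lower. After re-feeding, Stat5a rose by 1.19 ± 0.15 in P3r2 against P3 (adjusted p = 3.4e-05), while Stat5b did not pass the test (-0.05 ± 0.26). Socs3 (-2.30 ± 0.58), Ptpn2 (-2.19 ± 0.30) and Stat3 (-1.11 ± 0.23) fell. In P3r2 against fed 0 of the 18 genes were called by limma and 4 had an unadjusted p under 0.05, 1 higher and 3 lower, and 2 were called lower without the 3 arrays of narrow spread. Few rows were called in that comparison, 4.37% of all.

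Among the receptors and partners of IGF, Igfbp5, another binding protein, stood out in phase 3. Its log2 signal was 7.73, 7.56, 7.46 and 8.004 in P3 and 4.98, 5.12, 5.17 and 5.17 in fed animals, a rise of 2.58 ± 0.15 (adjusted p = 9.1e-09), and in P3r2 it fell by 2.88 ± 0.15 against P3. The fed values were close to the medians of their arrays (5.10, 4.93, 5.09 and 5.14), so the size of the rise rests in part on faint signals. Igf2r, the mannose 6-phosphate receptor that clears IGF-II, stood at 5.59, 5.26, 4.96 and 5.73 in P3 and 7.20, 6.95, 6.98 and 7.69 in fed animals. Its differences from fed were -0.96 ± 0.21 in P2 (adjusted p = 0.007) and -1.82 ± 0.21 in P3 (adjusted p = 9.5e-06). Lrp1, a scavenger receptor, fell by 2.78 ± 0.20 in P3 against fed (adjusted p = 1.0e-07). Igf1r, the receptor of IGF-I, rose by 0.41 ± 0.12 (adjusted p = 0.014). Igf2 (0.13 ± 0.18) and Insr, the insulin receptor (0.51 ± 0.21), were not called in that comparison. Over the list, with 20 of 23 genes measured, 2 rose and 4 fell in P3 against fed, with a median of 0.07, and 3 rose and 5 fell without the 3 arrays of narrow spread. Beside this, 15% of all rows rose and 10.7% fell with all arrays.

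Downstream of the insulin and IGF receptors, 7 of 28 measured genes rose and 3 fell in P3 against fed (median 0.27), and in P2 against fed 2 rose and 10 fell (median -0.50, beside 0.04 over all rows in each). Without the 3 arrays of narrow spread 9 rose and 3 fell in P3, and 3 rose and 14 fell in P2. The shares over all rows, with all arrays, were 15% higher and 10.7% lower in P3, and 8.05% higher and 9.15% lower in P2. Irs2, the substrate of the insulin receptor that insulin represses, stood at 9.41, 9.07, 8.03 and 9.37 in P3 and 5.38, 5.66, 5.91 and 5.89 in fed animals, and rose by 3.26 ± 0.27 (adjusted p = 4.8e-07). Its difference in P2 against fed was 0.60 ± 0.27 (adjusted p = 0.14). Ddit4, an inhibitor of the kinase mTOR, rose by 4.37 ± 0.18 in P3, and Trib3 by 1.47 ± 0.23 in P2 and by 2.75 ± 0.23 in P3 against fed. Foxo1, a transcription factor that drives Igfbp1 and that insulin signalling holds out of the nucleus, rose by 0.71 ± 0.23 in P3 (adjusted p = 0.03). Irs2 (-3.43 ± 0.27), Ddit4 (-4.13 ± 0.18), Trib3 (-2.65 ± 0.23) and Foxo1 (-0.67 ± 0.23) fell in P3r2 against P3.

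Genes with long spans fell more often in P2 over the whole table. Among the 2624 genes with the longest spans, 80 were higher and 413 lower in P2 against fed, and among the 2624 with the shortest spans 306 were higher and 52 lower. Of the 10 insulin signalling genes that fell in P2, 7 were among the longest, Mtor (-1.33 ± 0.23) and Gsk3b (-1.21 ± 0.32) included, and so were 4 of the 5 IGF partner genes and 4 of the 4 regulators that fell. Of the growth hormone receptor signalling genes that fell 1 of 5 was, and of the sex-dependent genes 1 of 3. How many of all measured genes of each list are among the longest was not counted, so no length effect is read from these counts. Stat5b, Ghr and Igf1 are among the longest, and Stat5a, Igfbp1, Igfbp2 and Igfals are not. In P3 against fed the longest genes gave 277 higher and 330 lower. The part of gene length in the P2 values was not tested.

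Liver genes that depend on growth hormone and on sex moved mainly downward in phase 3. Of 21 measured genes of this list (38 listed), 0 rose and 11 fell in P3 against fed in limma's adjusted test, with 1 higher and 11 lower at an unadjusted p under 0.05. The counts were 1 higher and 10 lower without the 3 arrays of narrow spread. The medians were -1.10 and -0.91. Among all rows 15% rose and 10.7% fell in P3 against fed. Cyp2c11, the male-specific steroid hydroxylase that pulses of growth hormone maintain, stood at 7.49, 6.60, 4.00 and 5.71 in P3 and 12.34, 11.88, 12.40 and 12.36 in fed animals. P3 3 was the lowest animal here too, and P3 1 the highest. Cyp2c11 rose by 6.19 ± 0.50 in P3r2 against P3 (adjusted p = 3.4e-07), and its difference from fed was -0.11 ± 0.50. Hsd17b2, which inactivates sex steroids, fell by 4.07 ± 0.20 in P3 against fed and rose past the fed level in P3r2, by 2.55 ± 0.20 against fed. In P2 against fed 1 of the 21 genes rose and 3 fell, beside 8.05% of all rows higher and 9.15% lower.

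**Figure D4:**
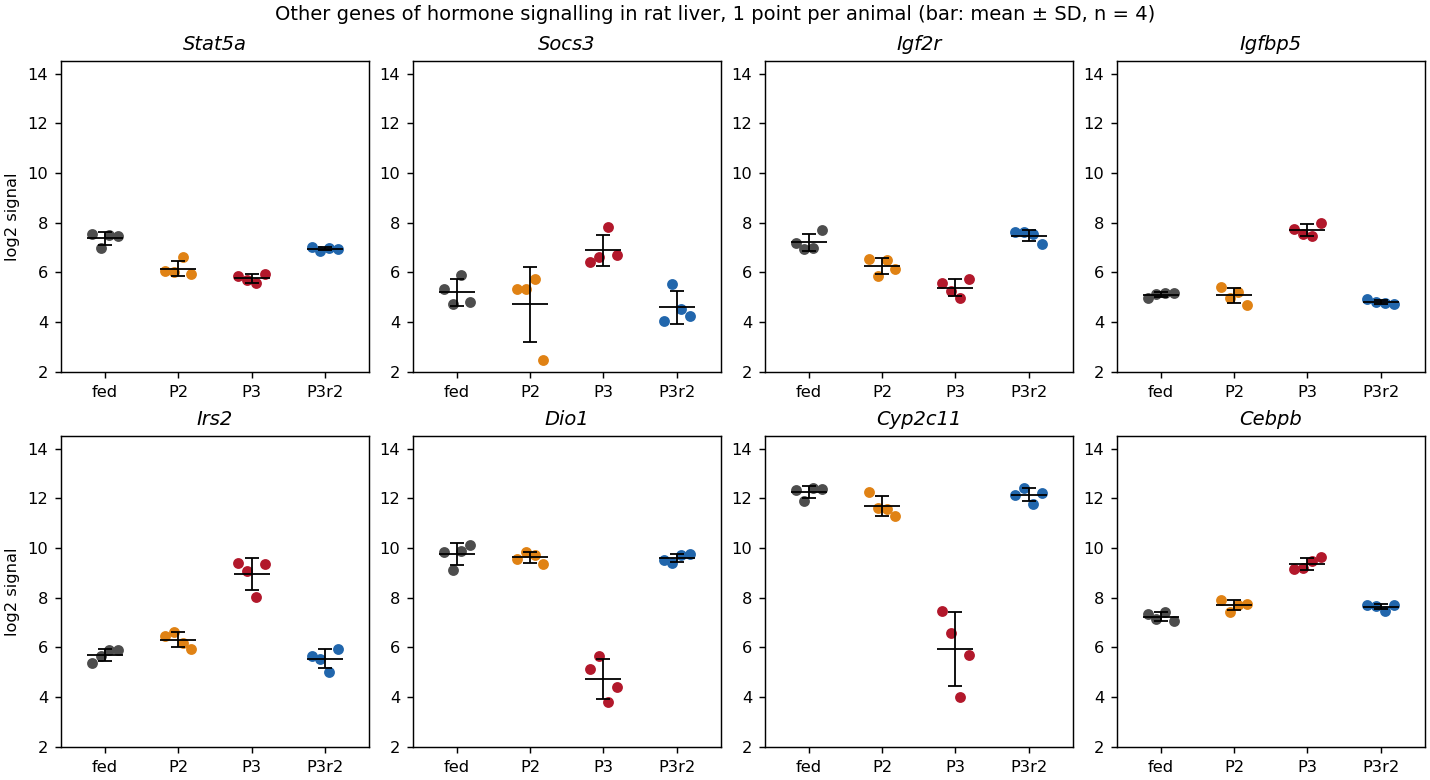
Log2 signal (vertical axis, the same range in each panel) of 8 genes of hormone signalling that are not among the 8 members, in fed, P2, P3 and P3r2 livers, 1 point per animal, with black bars for the mean ± SD (n = 4). Igfbp5, Irs2, Socs3 and Cebpb are highest in P3, and Stat5a, Igf2r, Dio1 and Cyp2c11 lowest, and Stat5a is nearly as low in P2.

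Among 31 measured regulators of growth hormone-responsive genes (35 listed), 5 rose and 5 fell in P3 against fed, and 8 rose and 5 fell without the 3 arrays of narrow spread. Over all rows 15% were higher and 10.7% lower in that comparison, so the counts of this list lie near the background. Dio1, the deiodinase that activates thyroid hormone, stood at 5.13, 5.64, 3.79 and 4.43 in P3 and 9.85, 9.12, 9.90 and 10.12 in fed animals, a difference of -5.001 ± 0.31 (adjusted p = 2.1e-08), and it differed from fed by -0.15 ± 0.31 in P3r2. Cebpb, a transcription factor of the fasting and acute phase response, rose by 2.12 ± 0.13 in P3, and Cebpa, its counterpart in the resting hepatocyte, fell by 0.92 ± 0.21. Cux2, a female-biased repressor in rodent liver, rose by 0.95 ± 0.20 (adjusted p = 0.0025). Sirt1, a deacetylase that blunts Stat5 signalling in fasting mice, rose by 2.05 ± 0.27 (adjusted p = 3.8e-05). Fgf21, a fasting hormone that lowers growth hormone signalling in mice, was not called in P3 (-0.87 ± 0.43, adjusted p = 0.17) or P2 (-0.26 ± 0.43, adjusted p = 0.71) against fed. Hnf4a (0.00 ± 0.17), Onecut1 (0.44 ± 0.35) and Bcl6 (-1.16 ± 0.55) were not called in P3 against fed.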

How the data were processed

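Liver RNA of 16 rats was measured on 1 array each, with no technical replicates per the series' design text. Its text and the submitters' processing notes name GCOS 1.4 and Expression Console 1.1 as the authors' programs. The deposited values are log2 signals, 1 per transcript cluster. Base 2 is an inference from their span of 0.84 to 13.6, and the summarisation, background correction and genome build are not named in the labels. No scaling was added to the deposited values.

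Gene names come from the array's annotation, with symbols updated through RefSeq (GRCr8). Of 19418 rows, 13947 have an annotation entry and were tested, 13327 of them with 1 symbol and 620 with several. The other 5471 were left out. Groups were taken from the sample titles and compared with limma 3.58.1 in R 4.3.3, by a group-means model over 16 arrays with 6 contrasts. Tests were two-sided with eBayes moderation, and p-values were adjusted by Benjamini-Hochberg over the 13947 rows at 0.05. The script was tested on simulated data. Precision is limited by 4 arrays per group. The 8 genes, the 5 pathway lists (148 genes, 118 with a row) and the 5 marker lists were chosen with earlier results of these data known. The rule for named genes takes up to 3 called genes per direction from each list in P2 against fed, P3 against fed and P3r2 against P3, plus a set of 16 key genes. The text names a part of these. The 8 genes plotted beside the members were picked after their values were seen. Settings varied were scaling, moderation, weights, arrays, rows, threshold and a replicate block. Figures were drawn with matplotlib 3.10.9.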

Additional observations from a re-analysis of the deposited data

Results flagged for a closer look

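In P2, Igf1 of animal 4 (10.90 log2 units) lay apart from the other 3, the nearest of which was at 11.33, so that 0.85 of the range of the group was this gap, above the critical value of Dixon's test for 4 samples. The 8 genes gave 32 groups to look at, and chance alone marks about 5% of such groups. P2 4 is 1 of the 3 arrays of narrow spread. Without P2 4 alone the difference of Igf1 in P2 against fed was -0.57, beside -0.69 with all arrays. This was the smallest difference in the 16 fits without 1 array. Without the 3 arrays of narrow spread it was -0.66, but these include fed 2, the lowest fed animal.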

How the results depend on the processing

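No member changed the direction of a called change under any of 29 alternatives. In 624 results over 13 settings, 587 kept their side of the threshold, 28 lost a call and 9 gained one, and in 768 results with 1 array left out 718 kept it, 49 lost a call and 1 gained one. The number of members called was 7 in P3 against fed (5 to 6 with 1 array left out), 7 in P3 against P2 (5 to 7), 7 in P3r2 against P3 (6 to 7), 2 in P2 against fed (2 in each) and 2 in P3r2 against P2 (2 in each). In P3r2 against fed it was 1 (1 to 2), with Igfbp2 added without P2 2. A fit of the 2 groups alone called 4 members in P2 against fed, 3 in P3r2 against fed and 4 in P3r2 against P2, but 6 in P3 against fed (Igfbp3 lost, adjusted p = 0.16), 5 in P3 against P2 (Igf1 and Igfbp2 lost, 0.13 and 0.12) and 6 in P3r2 against P3 (Igf1 lost, 0.064). Array weights called 2 in P3r2 against fed, Igfbp3 being added, and also called Igfbp3 in P2 against fed (adjusted p = 0.046). They lost Igfbp3 (0.14) and Igfbp4 (0.055) in P3 against fed, and Igfbp2 (0.085) in P3 against P2. The same 3 calls were lost with trend and robust moderation (0.056, 0.058 and 0.053). Including the rows without an annotation entry lost them too (0.061, 0.062 and 0.061). At a threshold of 0.01, 2 members were called in P2 against fed, 5 in P3 against fed, 5 in P3 against P2 and 5 in P3r2 against P3. The sample titles do not state whether animal numbers pair the groups. Deviations of same-numbered arrays from their group means correlated at -0.46 to 0.30, which cannot settle this with so few arrays. With the number as a replicate block, 6 members were called in P3 against P2 (Igfbp2 lost, adjusted p = 0.068), and the other comparisons kept counts of 2, 7, 7, 1 and 2. Over all rows, 609 were called in P3r2 against fed (1893 with array weights, 199 at 0.01, 282 without P3r2 1, 325 without P3r2 2, 289 without P3r2 3, 389 without P3r2 4, 360 without fed 2). In P3r2 against P2 2963 were called (5020 with array weights, 940 with array spread as a covariate, 1243 at 0.01, 1787 without P2 4, 1862, 1754 and 1731 without P3r2 1, 2 and 3). In P2 against fed 2399 were called (905 at 0.01, 1375 without fed 4, 1596 without P2 2, 1249 without P2 4), and in P3 against P2 4071 (2645 at 0.01). With the spread covariate, rows were 325 higher and 318 lower in P3r2 against fed and 1726 and 2210 in P3r2 against P3. The cause of these shifts was not tested. The spread covariate, the 3 arrays left out together and the wider set of rows were added after seeing the data.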
